A study of Mus musculus with 12 samples.

Results

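Cells burn fatty acids by a fixed sequence of steps, and 34 genes that carry out or control those steps are described here. The cells were muscle stem cells and progenitors sorted from mouse muscle, uninjured or 3 days after injury. The 34 genes were taken by symbol from a list of fatty acid uptake, activation, carnitine shuttle, beta-oxidation and regulator genes. All 34 were found among the 25093 genes of the deposited count table. The rule uses gene symbols and no measured value, although the list was drawn up with earlier results of these data known.

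Satellite cells are the stem cells of skeletal muscle, and they lie quiescent beneath the sheath of the muscle fibre until injury. The control mice were Pax7-CreERT2/+;Gli3+/+;R26R-YFP, written Gli3+/+, and the knockout mice were Pax7-CreERT2/+;Gli3fl/fl;R26R-YFP, written Gli3Δ/Δ. Both genotypes carry the Cre recombinase driven from Pax7, a gene of satellite cells, together with the YFP reporter, and both received tamoxifen. The mice were 3 to 4 months old. In the knockout this deletes a part of Gli3, a transcription factor of the Hedgehog pathway, in satellite cells. Quiescent satellite cells (QSCs) were sorted as α7-integrin+ CD34+ cells from uninjured hindlimb muscles, with the muscles of several mice combined in each library, and gave 3 Gli3+/+ and 3 Gli3Δ/Δ libraries. Activated satellite cells (ASCs) were sorted as α7-integrin+ VCAM1+ cells from cardiotoxin-injured muscle 3 days after the injury, and gave 6 libraries. The paper describes its ASCs as a mix of proliferating satellite cells and progenitors, and states that sorting activates QSCs in part. The labels give 3 ASC samples to each genotype, but the columns of the count table do not say which ASC library is which sample, and title and genotype label disagree for 2 of the 6 ASC samples. The ASC libraries are therefore called A to F and treated as 1 group of both genotypes. Muscles, gate, injury and mice per library change together between QSCs and ASCs, and their parts cannot be told apart.

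A fatty acid enters the cell with the help of the membrane receptor CD36 and is carried in the cytosol by small fatty acid binding proteins. An acyl-CoA synthetase ties it to coenzyme A, and the carnitine shuttle moves the long acyl chain across the inner mitochondrial membrane. There each turn of beta-oxidation removes an acetyl unit by dehydrogenation, hydration, a further dehydrogenation and thiolysis. Electrons from the acyl-CoA dehydrogenases pass through the electron transfer flavoprotein to the respiratory chain. The nuclear receptors of the PPAR family and their coactivators are known regulators of these genes, and quiescent satellite cells are known to rely on fatty acid oxidation more than cycling cells do.

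Totals ran from 36886130 to 65750131 estimated counts per library. ASC library F stood apart from the other 5 ASC libraries. The summed level of 8 macrophage markers was 5260 CPM (counts scaled to a common library size) in library F, 248 to 742 CPM in libraries A to E and 10.4 to 29.0 CPM in QSCs. For 8 endothelial markers it was 444 CPM in F against 62.2 to 158 CPM in the other ASC libraries, for 6 fibro-adipogenic markers 6840 against 627 to 1190 CPM, for 6 mural markers 1180 against 113 to 461 CPM and for 4 Schwann cell markers 842 against 20.3 to 75.2 CPM. Of 8 satellite cell markers, 7 were lower in ASCs than in QSCs and Itga7 was higher, and Pax7 fell from 800 to 1180 CPM in QSCs to 90.3 to 117 CPM in ASC libraries A to E and 50.9 CPM in F. The sum of 6 genes that respond to tissue dissociation, Fos and Jun among them, was 25500 to 34300 CPM in QSCs and 1020 to 2790 CPM in ASCs. Gli3 itself stood at 11.3, 9.63 and 9.40 CPM in Gli3+/+ QSCs and at 9.58, 10.7 and 6.27 CPM in Gli3Δ/Δ QSCs. Its log2 fold change, Gli3Δ/Δ over Gli3+/+, was -0.22 ± 0.22 (SE, edgeR quasi-likelihood test, adjusted p = 0.916). The deletion removes an exon. This test, on the count over the whole gene, found no significant difference in QSCs, and the exon alone was not tested. The paper reports significantly lower Gli3 by RNA-seq in Gli3Δ/Δ ASCs, and efficient excision in QSCs by RT-qPCR.

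The promoters of the acyl-CoA dehydrogenase genes and of Hadhb are shown because the dehydrogenases changed in opposite directions between the states and because Hadhb shares its promoter region with Hadha, the gene of its partner subunit. Each sequence runs 5′ to 3′ on the strand of the gene, from 250 bases before to 50 bases after the RefSeq start, on GRCm38.p6. Capitals mark the nuclear receptor half-site AGGTCA, on either strand, in the dehydrogenase promoters. Acads on chromosome 5 (chr5:115119297-115119596, minus strand) and Acadl on chromosome 1 (chr1:66863260-66863559, minus strand) hold no half-site. Acadm on chromosome 3 (chr3:153944594-153944893, minus strand) holds 1, as does Acadvl on chromosome 11 (chr11:70015379-70015678, minus strand).
Acads: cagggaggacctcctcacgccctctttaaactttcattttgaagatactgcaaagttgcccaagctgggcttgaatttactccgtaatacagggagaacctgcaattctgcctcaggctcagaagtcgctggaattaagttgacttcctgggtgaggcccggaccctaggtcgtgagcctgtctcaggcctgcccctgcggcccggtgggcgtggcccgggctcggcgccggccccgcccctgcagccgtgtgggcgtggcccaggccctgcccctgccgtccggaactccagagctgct
Acadl: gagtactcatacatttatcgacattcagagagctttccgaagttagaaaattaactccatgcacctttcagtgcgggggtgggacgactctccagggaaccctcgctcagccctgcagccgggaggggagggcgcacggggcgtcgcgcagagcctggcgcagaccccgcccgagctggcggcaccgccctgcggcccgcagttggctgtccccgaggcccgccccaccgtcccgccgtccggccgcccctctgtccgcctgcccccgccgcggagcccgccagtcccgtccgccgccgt
Acadm: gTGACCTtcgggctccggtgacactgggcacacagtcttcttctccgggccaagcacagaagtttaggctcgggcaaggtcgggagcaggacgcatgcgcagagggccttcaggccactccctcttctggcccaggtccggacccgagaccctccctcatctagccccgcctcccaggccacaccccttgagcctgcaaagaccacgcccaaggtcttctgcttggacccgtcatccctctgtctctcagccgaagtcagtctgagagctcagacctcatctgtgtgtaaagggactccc
Acadvl: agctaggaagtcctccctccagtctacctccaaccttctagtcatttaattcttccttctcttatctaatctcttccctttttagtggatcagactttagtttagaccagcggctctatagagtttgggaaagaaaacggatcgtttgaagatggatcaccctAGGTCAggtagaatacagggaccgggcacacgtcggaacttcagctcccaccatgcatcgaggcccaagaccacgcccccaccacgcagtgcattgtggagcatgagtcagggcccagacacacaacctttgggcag
Hadha and Hadhb lie head to head on chromosome 5, with 85 bases between the annotated genes. Hadha spans 30118304 to 30155162 on the minus strand and Hadhb 30155248 to 30184593 on the plus strand, and 228 bases of their promoter windows are shared. The window of Hadhb (chr5:30155003-30155302, plus strand) holds 4 GC boxes, GGGCGG on either strand, in capitals.
Hadhb: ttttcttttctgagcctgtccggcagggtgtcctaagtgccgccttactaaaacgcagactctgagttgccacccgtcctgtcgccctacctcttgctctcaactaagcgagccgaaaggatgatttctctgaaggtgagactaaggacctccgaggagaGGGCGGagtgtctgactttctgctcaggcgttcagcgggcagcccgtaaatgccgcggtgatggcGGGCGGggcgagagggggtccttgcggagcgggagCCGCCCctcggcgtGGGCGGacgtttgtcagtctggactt

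RefSeq promoters were matched for 28 of the 34 genes. Acaa2, Cpt1b, Decr1, Fabp4, Fabp5 and Ppargc1b have no entry. AGGTCA occurs in the windows of 6 of the 28, namely Acadm, Acadvl, Cd36, Cpt1a, Echs1 and Pparg. It occurs in at least 1 window of 18.1% of all 27025 genes with an entry. The GC box occurs in 22 of the 28 and in 38.2% of all genes with an entry. The median GC content of the members' windows was 61.3%, against 52.7% over all windows. The direct repeat of the half-site with 1 base between its copies occurs in none of the 28 and in 0.0481% of all genes with an entry. The estrogen-related receptor element TCAAGGTCA, which ends in the half-site, occurs in none of the 28 and in 0.466% of all genes with an entry. The NRF1 site occurs in the windows of Etfdh and Ppara and in those of 1.07% of all genes with an entry. All searches covered both strands.

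In resting cells the most abundant transcripts of the list, per length, belonged to the first dehydrogenation of beta-oxidation and to its electron carriers. On the scale of CPM per kb of exon, the highest mean levels over the 6 QSC libraries were those of Acadvl (44.8 ± 3.36, SD), Etfa (38.4 ± 1.81), Etfb (36.8 ± 6.29) and Acadl (33.5 ± 6.73), followed by Acadm, Cpt1a, Acaa2 and Acaa1a between 25.7 and 26.5. Among these 8 genes, the mean ± SD ranges of neighbours overlapped except between Acadvl and Etfa. The lowest were Ppara (0.918 ± 0.237), Pparg (0.689 ± 0.257) and Fabp3 (0.586 ± 0.233). Acadvl lay above 96.5% of all genes on this scale and Fabp3 above 42.6%. In ASCs the order was led by Acadl (75.3 ± 2.43), Etfb (66.3 ± 4.28), and Etfa (62.0 ± 4.29), with Fabp5 next, and Acadvl stood at 25.2 ± 1.86. With the length of the longest transcript in place of the exon union, Acadvl still led in QSCs, at 55.5, but Acadl, at 35.1, stood below Acadm (50.7) and Cpt1a (46.5), and in ASCs Etfb (86.5) and Etfa (81.8) stood above Acadl (78.8). By exon union Fabp5 moved from place 31 of 34 in QSCs to place 4 in ASCs.

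The comparison of ASCs with QSCs addressed how the pathway differs between resting and activated cells. Of the 34 genes, 17 rose and 6 fell in ASCs at an adjusted p under 0.05 (edgeR quasi-likelihood test, Benjamini-Hochberg over all genes) and a fold change of at least 1.2. Over all 25093 genes, 59.2% passed the same rule, 30.4% higher and 28.8% lower. The median log2 fold change of the members, ASC over QSC, was 0.46, and -0.03 over all genes, with 21 members above 0 (61.8%) against 49.2% of all genes. Without ASC library F, 17 of the members rose and 8 fell, beside 60.6% of all genes called (29.3% higher, 31.2% lower), and the median of the members was 0.28. The 6 ASC and 6 QSC libraries did not overlap for 15 members, 11 higher and 4 lower in ASCs (44.1%), against 39.6% of all genes (20.6% higher, 19.1% lower). In bulk RNA, a smaller number of cells of a type and less RNA per cell cannot be told apart. Whether the separate libraries of a state came from separate sorts is not stated, so the p-values measure the spread between these libraries.

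**Figure D1:**
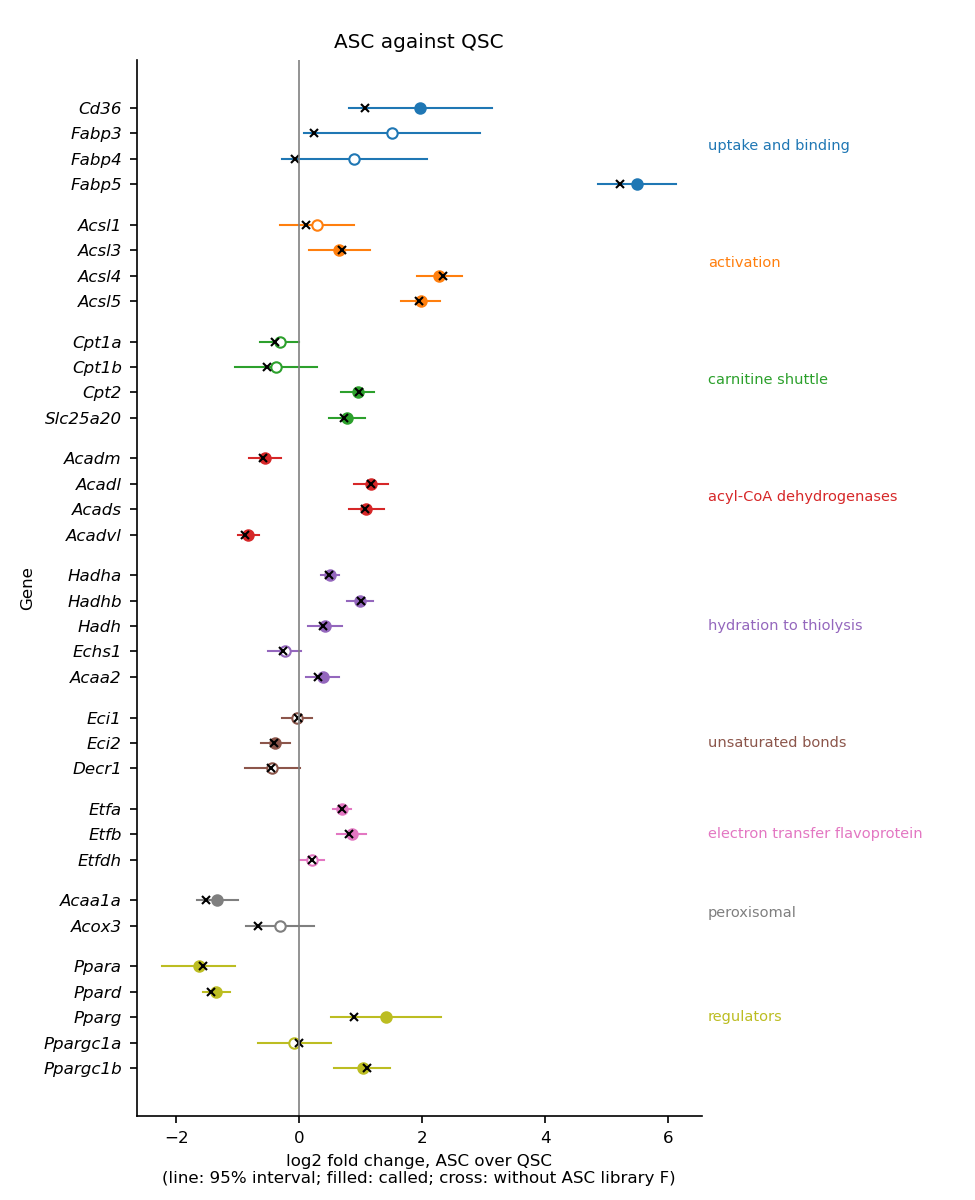
Log2 fold change of each of the 34 genes, ASC over QSC (x axis), by gene and role (y axis). Points are the edgeR estimate, lines its 95% interval, filled points the called genes (17 higher, 6 lower) and crosses the estimate without ASC library F, which lies far from the point for Cd36, Fabp3, Fabp4, Acox3 and Pparg.

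Uptake and binding held the largest change of the list. Fabp5, a cytosolic carrier of fatty acids, lay at 2.65 to 6.54 CPM in QSCs with a median of 3.69, and at 128 to 323 CPM in ASCs with a median of 157. The groups were far apart, and the lowest ASC library stood well above the highest QSC library. The log2 fold change was 5.49 ± 0.30 (SE), or 44.9-fold (adjusted p = 5.66e-09), and 5.21 without library F. Its neighbour on chromosome 3, Fabp4, lies some way downstream on the other strand (10204088 to 10208576, against 10012548 to 10016607 for Fabp5) and encodes a carrier best known from adipocytes and endothelium. Fabp4 ranged from 27.6 to 58.6 CPM in QSCs, median 30.1, and from 16.4 to 216 CPM in ASCs, median 34. Its groups overlapped and it was not called (log2 fold change 0.89 ± 0.54, adjusted p = 0.174). Without library F the estimate was -0.07.

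Cd36, the membrane receptor for long-chain fatty acids, ranged from 20.9 to 54.1 CPM in QSCs, median 25.3, and from 32.6 to 381 CPM in ASCs, median 68.5. It rose by 1.97 ± 0.54 on the log2 scale (adjusted p = 0.00629), and by 1.06 (adjusted p = 0.00563) without library F, where it was 7.33 times the median of the other ASC libraries. Against Gli3+/+ QSCs alone it was not called (adjusted p = 0.0906). The groups overlapped, since ASC library B, at 32.6 CPM, lay below the highest QSC library. Fabp3, the carrier of heart and muscle, was near the limit of detection, with 9 to 271 counts per library. It was between 0.178 and 0.694 CPM in QSCs and between 0.377 and 0.995 CPM in ASC libraries A to E, with 5.26 CPM in F, and was not called (adjusted p = 0.0667). It was called by DESeq2 (log2 fold change 1.49, adjusted p = 0.0351) and without ASC library B (1.70, adjusted p = 0.0422) or D (1.74, 0.0399), and without F its log2 fold change was 0.24. Library F held the highest level of all 4 uptake and binding genes and of all 8 endothelial and all 8 macrophage markers among ASCs. The adipocyte markers Plin1, Retn, Cidec and Cfd summed to at most 1.98 CPM in any library. Macrophage markers were also higher in ASC libraries A to E (sum 248 to 742 CPM) than in QSCs (10.4 to 29.0 CPM), so that leaving out F does not remove them. The part of these other cell types in the levels of Cd36, Fabp3, Fabp4 and Fabp5 was not tested.

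**Figure D2:**
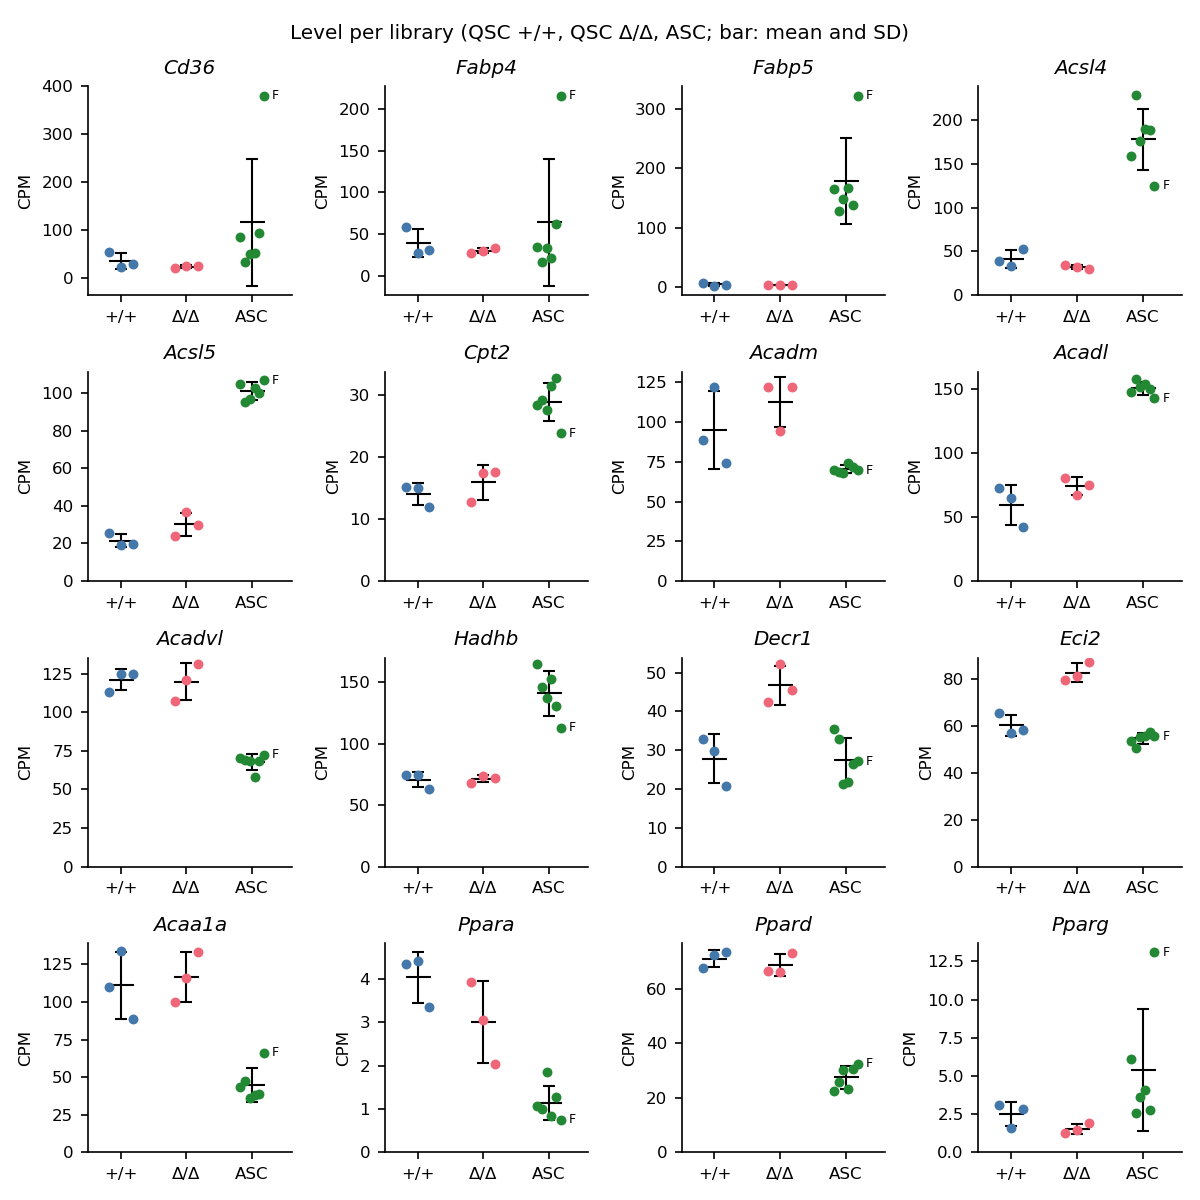
Level in CPM (y axis, from 0 or below where the SD bar reaches there) of 16 of the genes in each of 3 QSC Gli3+/+, 3 QSC Gli3Δ/Δ and 6 ASC libraries (points), with the mean and SD of each group (bars) and ASC library F lettered. Fabp5, Acsl4, Acsl5, Acadl and Hadhb sit higher in every ASC library than in any QSC library, Acadvl, Acaa1a, Ppara and Ppard lower, and F is the high ASC point of Cd36, Fabp4 and Pparg.

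Of the long-chain acyl-CoA synthetases, 4 are on the list of members. Acsl6, at 5.32 to 9.22 CPM in QSCs and 5.88 to 8.65 CPM in ASCs, is among the other pathway genes and was left out of the shares below. Acsl4, which prefers arachidonic acid and related polyunsaturated fatty acids, lay at 29.4 to 53.0 CPM in QSCs, median 33.9, and at 125 to 229 CPM in ASCs, median 183. Acsl5, a synthetase of mitochondria and endoplasmic reticulum, lay at 19.0 to 36.5 CPM, median 24.8, and at 95.1 to 107 CPM, median 102. Neither gene's groups overlapped. The log2 fold changes were 2.27 ± 0.17 for Acsl4 (4.84-fold, adjusted p = 8.27e-08) and 1.98 ± 0.15 for Acsl5 (3.93-fold, adjusted p = 8.40e-08). Acsl3, found on lipid droplets and endoplasmic reticulum, spread from 34.2 to 98.5 CPM in ASCs and from 31.4 to 58.3 CPM in QSCs, and rose by 0.65 ± 0.23 (adjusted p = 0.0270). That call was lost without any 1 of the Gli3Δ/Δ libraries or ASC library E, with log2 fold changes of 0.59 to 0.61 and adjusted p from 0.0555 to 0.0608. It was also lost without ASC library B (0.48, adjusted p = 0.0708) and against Gli3+/+ QSCs alone (0.41, adjusted p = 0.278). Acsl1, the synthetase most tied to oxidation in muscle and fat, was at 9.17 to 27.5 CPM in QSCs and 12.1 to 24.8 CPM in ASCs and was not called (log2 fold change 0.29, 95% interval -0.32 to 0.89). Gli3+/+ library 3 held the highest QSC value of Acsl1, and without it the log2 fold change was 0.59 (adjusted p = 0.0253).

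Among the synthetase transcripts, taken as CPM per kb and summed over the 4 genes, Acsl4 made up 30.0 ± 2.95% (SD, n = 6) in QSCs and 46.9 ± 4.51% (n = 6) in ASCs. Acsl3 went from 40.3 ± 4.29% to 20.3 ± 5.04%. Each of these shares differed between the states without overlap (two-sided exact permutation p = 0.00216, which is the lower limit for 6 against 6, and 0.00354 after Benjamini-Hochberg over 18 shares).

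In the carnitine shuttle both genes of the inner membrane rose, and the genes of the outer enzyme were not called. Cpt2, the carnitine palmitoyltransferase of the inner membrane, went from 12 to 17.6 CPM in QSCs to 23.9 to 32.8 CPM in ASCs, with medians of 15.1 and 28.8. Slc25a20, the carnitine-acylcarnitine carrier of that membrane, went from 11.8 to 18.5 CPM to 23.2 to 30.8 CPM, with medians of 16.1 and 25.6. Neither gene's groups overlapped, and the log2 fold changes were 0.95 ± 0.12 (adjusted p = 1.69e-05) and 0.77 ± 0.14 (adjusted p = 0.000242). Cpt1a, the outer-membrane transferase that malonyl-CoA inhibits and the step that limits entry, lay at 124 to 244 CPM in QSCs, median 213, and at 145 to 185 CPM in ASCs, median 156. Its log2 fold change was -0.32 ± 0.15 (adjusted p = 0.0748). It was lower past the threshold without library F (-0.39, adjusted p = 0.0375) and without Gli3+/+ library 3 (-0.43, adjusted p = 0.00277), the QSC library where it was lowest. The same held in limma-voom (-0.39, adjusted p = 0.0101) and against Gli3Δ/Δ QSCs alone (-0.45, adjusted p = 0.0142), but not against Gli3+/+ QSCs alone (-0.20, adjusted p = 0.378). Cpt1b, the muscle-fibre isoform, was at 2.64 to 9.10 CPM in QSCs and 2.07 to 6.08 CPM in ASCs and was not called (adjusted p = 0.315). It shares 2744 exon bases with the readthrough gene Gm44502, so that its counts are uncertain. Cpt1a made up 93.8 ± 2.52% of the Cpt1a and Cpt1b transcripts per kb in QSCs and 94.3 ± 1.67% in ASCs, a difference within the spread of the libraries (exact permutation test, p = 0.697). The ratio of Cpt2 to Cpt1a in CPM rose from 0.0534 to 0.101 in QSCs to 0.129 to 0.226 in ASCs (exact permutation test, p = 0.00216, adjusted over 8 ratios 0.00346).

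The acyl-CoA dehydrogenases, which open each turn of beta-oxidation and differ in the chain length they prefer, changed in opposite directions. Acadl, for long chains, rose from 42.3 to 80.9 CPM in QSCs to 143 to 158 CPM in ASCs, with medians of 69.8 and 151. Acads, for short chains, rose from 15.7 to 28.5 CPM to 45.7 to 55.9 CPM, with medians of 24.1 and 49.3. Acadvl, for very long chains, fell from 107 to 131 CPM to 58.0 to 72.5 CPM, with medians of 123 and 68.8. Acadm, for medium chains, lay at 74.2 to 122 CPM in QSCs, median 108, and at 68.2 to 74.5 CPM in ASCs, median 69.7. Groups did not overlap for Acadl, Acads and Acadvl, and for Acadm they met at Gli3+/+ library 3. The log2 fold changes were 1.17 ± 0.13 for Acadl (adjusted p = 3.51e-06), 1.08 ± 0.13 for Acads (adjusted p = 9.86e-06), -0.83 ± 0.08 for Acadvl (adjusted p = 9.70e-07) and -0.56 ± 0.12 for Acadm (adjusted p = 0.0013). Acadvl (chromosome 11, 70010183 to 70015411, minus strand) overlaps 1151 exon bases of Dvl2 on the other strand, and whether the counting used strand is not stated.

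The summed level of the 4 dehydrogenases overlapped between the states, at 257 to 356 CPM in QSCs and 334 to 344 CPM in ASCs, while its makeup differed. Per kb of exon, Acadvl fell from 39.3 ± 5.63% of the sum in QSCs to 18 ± 1.37% in ASCs and Acadl rose from 28.9 ± 3.86% to 53.6 ± 1.41% (SD, n = 6 each). Acadm fell from 22.9 ± 2.74% to 12.8 ± 0.553%, and Acads rose from 8.96 ± 1.40% to 15.6 ± 1.13%. None of the 4 shares overlapped between the states (exact permutation test, p = 0.00216 for each, 0.00354 adjusted over 18 shares). The ratio of Acadl to Acadvl in CPM was 0.338 to 0.759 in QSCs and 1.98 to 2.66 in ASCs.

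**Figure D3:**
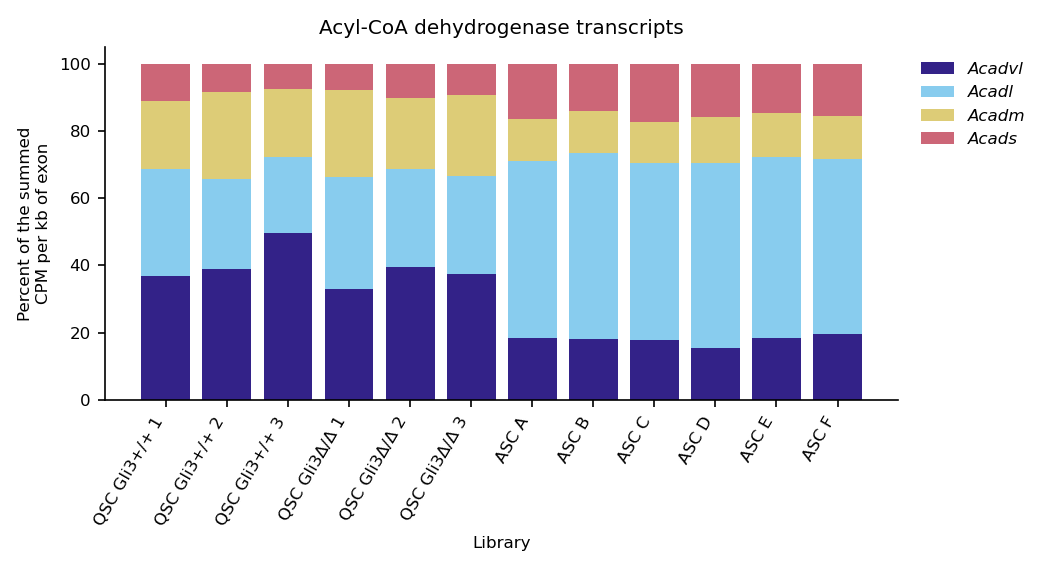
Share of Acadvl, Acadl, Acadm and Acads in their summed CPM per kb of exon (y axis, percent) in each of the 12 libraries (x axis). Acadvl takes 32.9 to 49.8% in QSCs and 15.5 to 19.6% in ASCs, and Acadl 22.6 to 33.5% and 52.0 to 55.4%.

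Of the later steps, 4 of 5 genes rose. Hadha and Hadhb encode the subunits of the mitochondrial trifunctional protein, which carries hydration, the second dehydrogenation and thiolysis of long chains. Hadhb went from 63.4 to 74.9 CPM in QSCs to 113 to 165 CPM in ASCs, with medians of 73.2 and 142, and Hadha from 116 to 133 CPM to 167 to 190 CPM, with medians of 127 and 178. Groups overlapped for neither gene, and the log2 fold changes were 0.98 ± 0.09 (adjusted p = 9.22e-07) and 0.50 ± 0.07 (adjusted p = 2.72e-05). Although the genes face each other across 85 bases, the ratio of Hadhb to Hadha was 0.479 to 0.640 in QSCs and 0.641 to 0.889 in ASCs, so that they rose by unequal amounts (mean difference of the log2 ratio 0.48, exact permutation test, p = 0.00216, adjusted over 8 ratios 0.00346). The lowest ASC ratio was that of library F. Hadh, the hydroxyacyl-CoA dehydrogenase of shorter chains, rose by 0.41 ± 0.13 (adjusted p = 0.0115), from a median of 36.9 to 49.9 CPM. Acaa2, the mitochondrial thiolase, rose by 0.38 ± 0.12 (adjusted p = 0.0181), from a median of 39.3 to 51.4 CPM. For Hadh and Acaa2 the groups overlapped. Against the Gli3Δ/Δ QSCs alone neither was called (adjusted p = 0.0862 and 0.154), and against the Gli3+/+ QSCs alone both were (0.0115 and 0.0092). Echs1, the short-chain enoyl-CoA hydratase, was at 63.6 to 79.7 CPM in QSCs and 49.1 to 74.4 CPM in ASCs and was not called (log2 fold change -0.24, adjusted p = 0.099). Without ASC library A it was called lower (-0.31, adjusted p = 0.0384), as it was in limma-voom (-0.29, adjusted p = 0.0442).

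The electron transfer flavoprotein collects electrons from the acyl-CoA dehydrogenases and hands them to its membrane oxidoreductase. Its subunits Etfa and Etfb rose side by side. Etfa went from 66.5 to 75.1 CPM in QSCs to 101 to 123 CPM in ASCs, with medians of 70.9 and 115, and Etfb from 34.1 to 51.6 CPM to 71.6 to 84.3 CPM, with medians of 41.7 and 77.6. Groups overlapped for neither, and the log2 fold changes were 0.69 ± 0.07 (adjusted p = 2.04e-06) and 0.85 ± 0.11 (adjusted p = 1.60e-05). Their ratio was 1.29 to 2.13 in QSCs and 1.25 to 1.71 in ASCs (exact permutation test, p = 0.188). Etfb shares 678 exon bases with Gm45233 on the same strand, so that some of its counts could belong there. Etfdh, the oxidoreductase, was at 48.2 to 64.2 CPM in QSCs and 58.7 to 72.4 CPM in ASCs and was not called (log2 fold change 0.21 ± 0.09, adjusted p = 0.0668). Without ASC library D it was called higher (0.27, adjusted p = 0.0268), as it was against Gli3+/+ QSCs alone (0.33, adjusted p = 0.0336).

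Of the 3 auxiliary enzymes for unsaturated fatty acids among the members, 1 fell and none rose past the threshold. Eci2, an enoyl-CoA isomerase, was at 56.8 to 87.2 CPM in QSCs, median 72.4, and at 50.6 to 57.4 CPM in ASCs, median 55.3, and fell by 0.39 on the log2 scale (SE 0.11, adjusted p = 0.00878). Decr1, the dienoyl-CoA reductase, was at 20.8 to 52.3 CPM in QSCs and 21.4 to 35.4 CPM in ASCs (log2 fold change -0.44 ± 0.21, adjusted p = 0.084), and without Gli3+/+ library 3 it was called lower (-0.57, adjusted p = 0.0143), as it was in limma-voom (-0.49, adjusted p = 0.0402). Eci1, the other mitochondrial isomerase, was at 22.1 to 30.9 CPM and 22.3 to 30.2 CPM (log2 fold change -0.04, 95% interval -0.28 to 0.20). The result for Eci2 and Decr1 differed with the QSC genotype used. Against Gli3Δ/Δ QSCs alone the log2 fold changes of ASCs were -0.60 (adjusted p = 0.000155) for Eci2 and -0.77 (adjusted p = 0.00397) for Decr1. Against Gli3+/+ QSCs alone they were -0.15 (adjusted p = 0.225) and -0.02 (adjusted p = 0.937).

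Peroxisomes shorten very long and branched chains. Acaa1a, the peroxisomal thiolase, fell from 89.0 to 134 CPM in QSCs to 35.9 to 66.4 CPM in ASCs, with medians of 113 and 41.0 and no overlap (log2 fold change -1.34 ± 0.16, adjusted p = 6.69e-06). Its near copy Acaa1b was at most 0.818 CPM in any library. Acox3, an acyl-CoA oxidase for branched chains, was at 22.2 to 35.3 CPM in QSCs and at 14.9 to 22.1 CPM in ASC libraries A to E, with 47.0 CPM in F. It was not called with library F (log2 fold change -0.31, adjusted p = 0.314), and without it fell by 0.68 on the log2 scale (adjusted p = 0.000578) with no overlap. In limma-voom it was called lower on all libraries (-0.61, adjusted p = 0.00251).

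Among the regulators, 2 of the PPAR genes fell. Ppard, the PPAR found in most tissues, fell from 66.1 to 73.3 CPM in QSCs to 22.4 to 32.5 CPM in ASCs, with medians of 69.8 and 28.0. Ppara, the PPAR of fasting and fat oxidation in liver and heart, fell from 2.03 to 4.42 CPM to 0.757 to 1.85 CPM, with medians of 3.64 and 1.03 and 32 to 301 counts per library. Groups did not overlap for Ppard or Ppara, and the log2 fold changes were -1.35 ± 0.10 (adjusted p = 1.17e-07) and -1.63 ± 0.28 (adjusted p = 0.000171). Pparg, the PPAR of adipocytes and macrophages, went from 1.24 to 3.10 CPM to 2.55 to 13.1 CPM, with medians of 1.77 and 3.86. It rose by 1.41 ± 0.41 (adjusted p = 0.00971) and, without library F, which held its highest value, by 0.89 (adjusted p = 0.0214). Leaving out F does not remove macrophage markers, which summed to 248 to 742 CPM in ASC libraries A to E and 10.4 to 29.0 CPM in QSCs. The part of macrophages in the level of Pparg was not tested. Against Gli3+/+ QSCs alone Pparg was not called (adjusted p = 0.125). Of the PGC1 coactivators of mitochondrial genes, Ppargc1b rose from 7.07 to 15.7 CPM to 15.1 to 27.3 CPM, with medians of 11.7 and 25.5 (log2 fold change 1.03 ± 0.21, adjusted p = 0.00083). Library F held its lowest ASC value, below the highest QSC value. Ppargc1a was at 4.59 to 14.3 CPM and 5.26 to 12.6 CPM (log2 fold change -0.08, 95% interval -0.67 to 0.52). Per kb, Ppard made up 85.3 ± 2.95% of the PPAR transcripts in QSCs and 65.3 ± 11.2% in ASCs, and Pparg 6.26 ± 2.11% and 29.3 ± 12.7% (exact permutation test, p = 0.00216 for either, 0.00354 adjusted over 18 shares). Without library F, where Pparg made up 49.6%, the ASC shares were 68.7 ± 8.32% for Ppard and 25.3 ± 8.9% for Pparg.

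**Figure D4:**
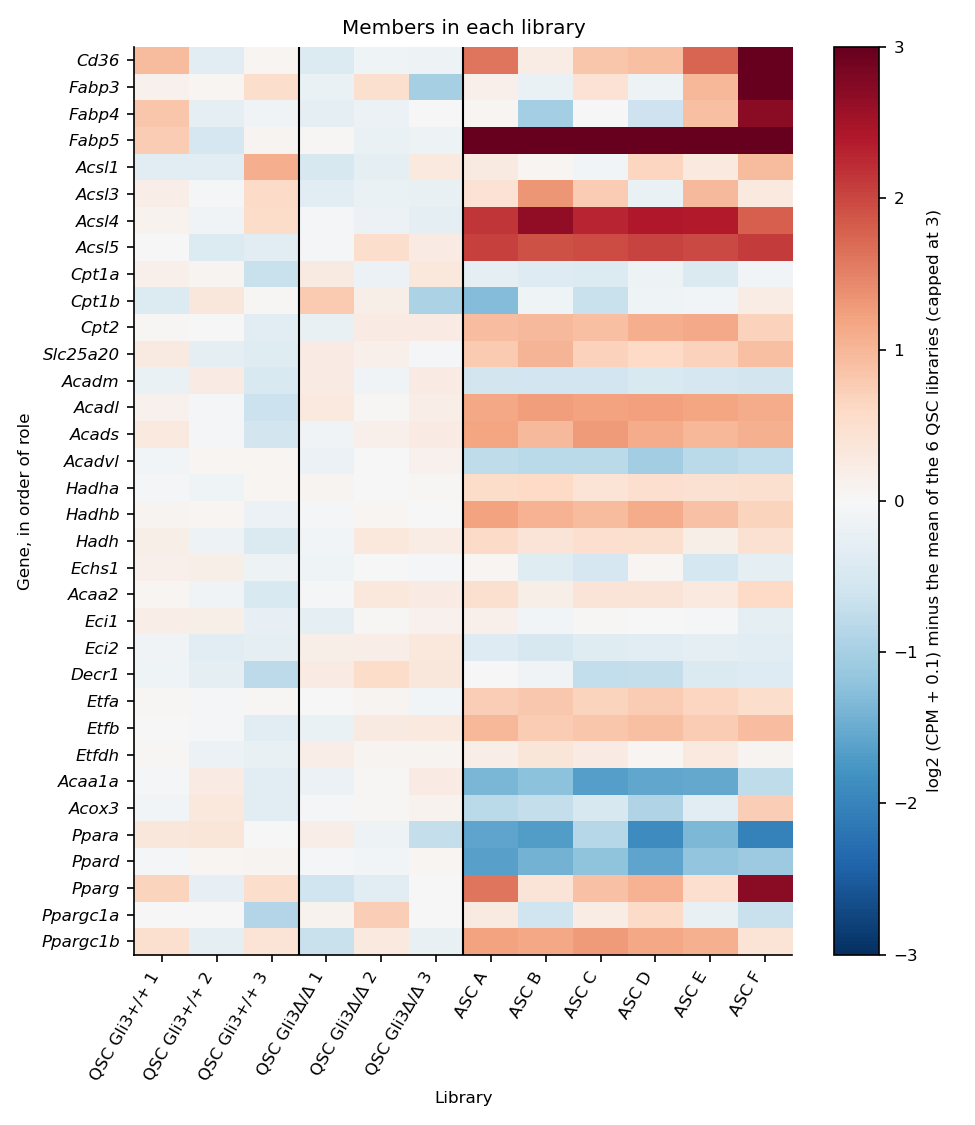
Level of each of the 34 genes (rows) in each of the 12 libraries (columns), as log2 of CPM + 0.1 minus the mean of the 6 QSC libraries, with colours capped at 3 in either direction. Fabp5 lies past the cap in all 6 ASC libraries, and F differs from A to E in Cd36, Fabp3, Fabp4, Acox3 and Pparg.

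Other genes of the pathway were taken from a list of 59, of which 56 were in the table. In ASCs, 14 of the 56 rose (25.0%) and 19 fell (33.9%), beside 30.4% and 28.8% of all genes, with a median log2 fold change of 0.05. Among those that rose, on the log2 scale, was Acot7, a cytosolic thioesterase, by 4.82 (2.25 to 4.64 CPM in QSCs, 68.9 to 119 CPM in ASCs). Plin2, a coat protein of lipid droplets, rose by 3.16 (8.48 to 21.5 CPM, 78.2 to 299 CPM). Acsbg1, a synthetase, rose by 5.51 (0.152 to 0.403 CPM, 6.37 to 28.8 CPM), and Dbi, the acyl-CoA binding protein, by 1.41. Library F held the highest value of Plin2 and Acsbg1, whose log2 fold changes without it were 2.72 and 5.02. Genes that fell included Slc27a1, an uptake transporter, with 183 to 304 CPM in QSCs and 16.4 to 68.5 CPM in ASCs (log2 fold change -2.81). Slc22a5, the carnitine transporter of the cell membrane, was at 38.4 to 44.5 CPM and 9.93 to 13.7 CPM (-1.94), and the lipase gene Lipe at 38.3 to 53.2 CPM and 4.22 to 20.4 CPM (-2.46).

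Of the genes around malonyl-CoA, the inhibitor of CPT1, Acacb and Mlycd fell and Acaca rose. Acacb, the acetyl-CoA carboxylase at the mitochondrial surface, was at 48.4 to 87.0 CPM in QSCs and 6.29 to 12 CPM in ASCs (log2 fold change -3.06 ± 0.19, adjusted p = 1.81e-08). Mlycd, which degrades malonyl-CoA, was at 18.1 to 26.0 CPM and 6.09 to 12.3 CPM (-1.21). Acaca, the cytosolic carboxylase of fatty acid synthesis, rose from 62.3 to 82.5 CPM to 94.2 to 142 CPM (0.71 ± 0.11, adjusted p = 8.38e-05). Of the other regulators, Esrra, a nuclear receptor of mitochondrial genes, rose by 1.76 (10.3 to 24.2 CPM, 45.3 to 71.8 CPM), and Esrrg, its relative, went from 5.17 to 8.06 CPM to 0.0531 to 0.777 CPM (-4.33). Pdk4, which holds back glucose oxidation, went from 140 to 296 CPM to 42.8 to 97.9 CPM (-1.54). The other genes that rose were Acat1, Prkaa1, Acot13, Angptl4, Slc27a3, Abcd2 and Slc27a6, with log2 fold changes from 0.38 to 4.44, together with Acaa1b, which was under the level of 1 CPM throughout. The others that fell were Acsf2, Acot1, Ehhadh, Lpl, Pnpla2, Prkaa2, Rxra, Ech1, Sirt3, Rxrb, Ncor1 and Abcd3, from -2.54 to -0.34. The highest of these fold changes, that of Slc27a6, rests on low levels. Slc27a6 was at 0 to 0.175 CPM in QSCs and 0.106 to 0.409 CPM in ASC libraries A to E, with 3.67 CPM in F. Against Gli3+/+ QSCs alone Slc27a6 was not called (adjusted p = 0.0664, edgeR). Without library F the estimate of Slc27a6 was 2.79 and that of Abcd2 was 0.70, and Abcd2 was no longer called.

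The comparison of Gli3Δ/Δ with Gli3+/+ QSCs addressed whether loss of Gli3 alters the pathway in resting cells. None of the 34 members was called by the edgeR test, beside 88 of 25093 genes (0.351%), and 4 members had an unadjusted p under 0.05, as did 7.11% of all genes. DESeq2 called 1 member, Decr1, and limma-voom called 0. The median log2 fold change of the members, Gli3Δ/Δ over Gli3+/+, was 0.02, against -0.03 over all genes, and 18 members were above 0 (52.9%, against 45.0% of all genes) and 16 below. The 95% interval of the log2 fold change lay within a 2-fold change in either direction for 24 of the 34. The exceptions were Cd36, Fabp3, Fabp5, Acsl1, Cpt1b, Decr1, Ppara, Pparg, Ppargc1a and Ppargc1b. For 5 members (14.7%) the groups did not overlap, 4 higher and 1 lower, against 13.1% of all genes (7.39% higher, 5.75% lower).

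Decr1, the dienoyl-CoA reductase, stood nearest to the threshold. Its level was 32.8, 29.8 and 20.8 CPM in the Gli3+/+ libraries and 42.4, 52.3 and 45.5 CPM in the Gli3Δ/Δ libraries. Every Gli3Δ/Δ library lay above every Gli3+/+ library. The log2 fold change was 0.72 ± 0.18 (SE), or 1.65-fold (95% interval 0.32 to 1.12, unadjusted p = 0.00301, adjusted p = 0.249, edgeR), and DESeq2 gave 0.73 with an adjusted p of 0.0305. Eci2, which acts on the same unsaturated chains, was at 65.3, 56.8 and 58.3 CPM in Gli3+/+ and at 79.5, 81.1 and 87.2 CPM in Gli3Δ/Δ, again without overlap (log2 fold change 0.43 ± 0.12, adjusted p = 0.397). Eci1 was at 30.9, 30.7 and 22.8 CPM and 22.1, 27.6 and 29.4 CPM, with a log2 fold change of -0.12.

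Acsl3 was lower in each Gli3Δ/Δ library (31.4, 34.1 and 33.7 CPM) than in any Gli3+/+ library (45.0, 37.8 and 58.3 CPM), the log2 fold change being -0.54 ± 0.18 (adjusted p = 0.481). Acsl5 was at 25.5, 19.0 and 19.7 CPM in Gli3+/+ and 24.1, 36.5 and 29.7 CPM in Gli3Δ/Δ, and its groups overlapped (0.46 ± 0.19, adjusted p = 0.656). Per kb, Acsl3 made up 44.1 ± 0.611% of the transcripts of the synthetases among the members in Gli3+/+ and 36.5 ± 1.19% in Gli3Δ/Δ. Acsl5 made up 18.5 ± 4.44% and 29.5 ± 4.06% (SD, n = 3 each). The exact permutation p was 0.1 for each, the smallest that 3 against 3 allows, and 0.6 adjusted over 18 shares. Ppard, at 83.2 ± 2.38% of the PPAR transcripts in Gli3+/+ and 87.4 ± 1.63% in Gli3Δ/Δ, had the same values in that test.

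Etfdh was at 57.2, 49.3 and 48.2 CPM in Gli3+/+ and at 64.2, 59.4 and 59.6 CPM in Gli3Δ/Δ (log2 fold change 0.21 ± 0.13, adjusted p = 0.834). Ppargc1a was at 8.41, 8.48 and 4.59 CPM and at 9.10, 14.3 and 8.60 CPM (0.55 ± 0.28, adjusted p = 0.779). For Etfdh and Ppargc1a too every Gli3Δ/Δ library lay above every Gli3+/+ library. Groups without overlap, in either direction, were about as frequent among all genes (13.1%) as among the members (14.7%). The summed level of 8 myofiber markers was 92.8 to 105 CPM in Gli3+/+ and 114 to 145 CPM in Gli3Δ/Δ QSCs. Atp2a1, 1 of the 8, was at 44.5 to 48.2 CPM and 64.7 to 88.9 CPM, and Myh1 at 8.43 to 10.8 CPM and 11.1 to 14.2 CPM. The ranges of Acta1, Ckm, Myh4, Myh2, Tnnt3 and Mb overlapped between the genotypes, so the higher sum is not shared by all the markers. The summed level of 4 Schwann cell markers was 67.6 to 96.3 CPM and 32.5 to 48.7 CPM. None of these markers was called between the genotypes. Their part in the levels of Etfdh, Ppargc1a, Decr1 and Eci2 was not tested. Pparg was at 3.10, 1.62 and 2.84 CPM and at 1.24, 1.49 and 1.91 CPM, with an overlap (log2 difference -0.73 ± 0.33, adjusted p = 0.718).

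**Figure D5:**
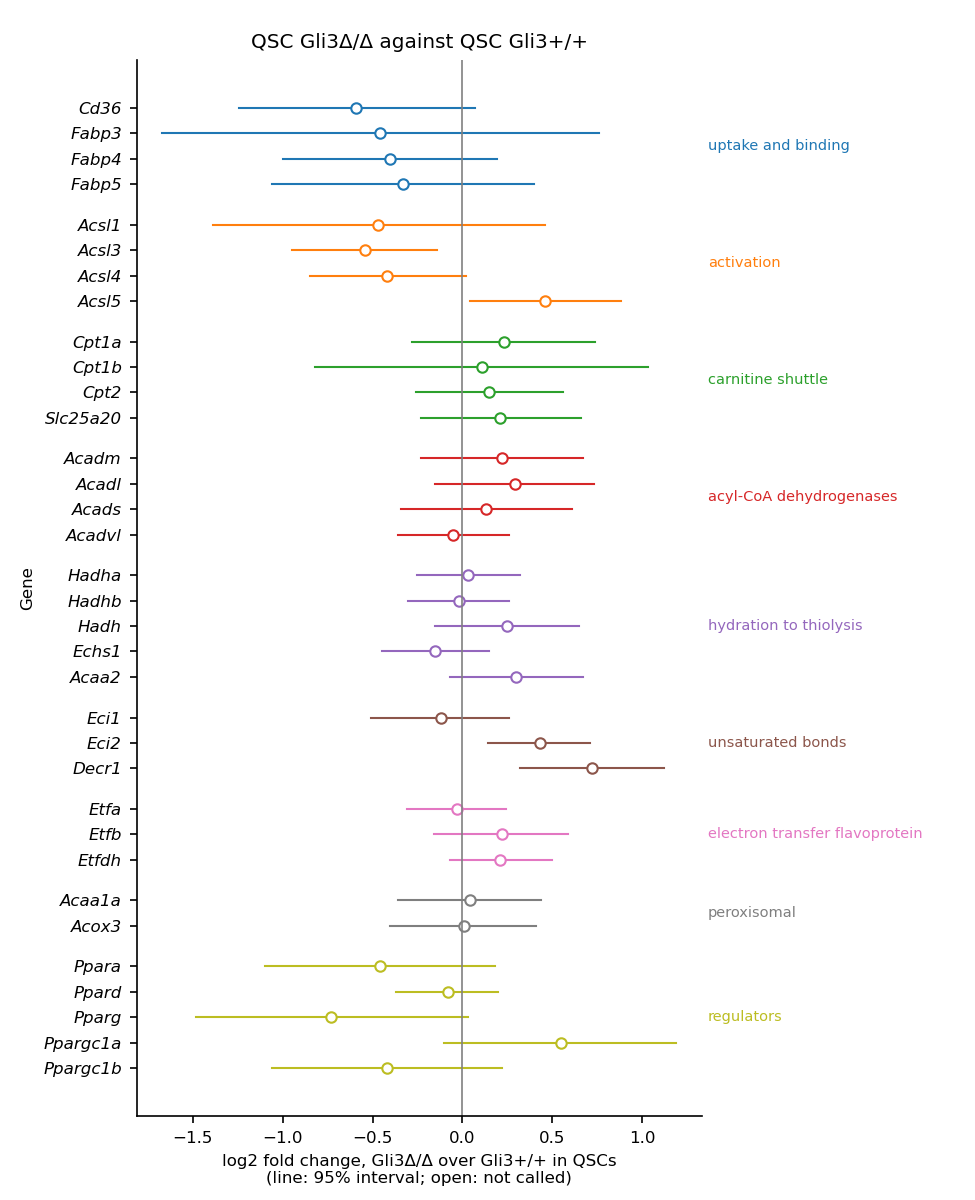
Log2 fold change of each of the 34 genes, Gli3Δ/Δ over Gli3+/+ in QSCs (x axis), by gene and role (y axis), with 95% intervals from edgeR (lines). All points are open because no gene was called, and the intervals of Decr1, Eci2, Acsl3 and Acsl5 do not reach 0.

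By role, the 4 uptake and binding genes had log2 fold changes from -0.59 to -0.33 in Gli3Δ/Δ QSCs, the 4 carnitine shuttle genes from 0.11 to 0.23 and the 4 dehydrogenases from -0.05 to 0.29. None of these passed the test. Cd36 was at 54.1, 22.3 and 29.1 CPM in Gli3+/+ and 20.9, 25.6 and 25.0 CPM in Gli3Δ/Δ (adjusted p = 0.755), and Fabp4 at 58.6, 27.6 and 30.6 CPM and 27.6, 29.5 and 32.7 CPM (adjusted p = 0.856). Gli3+/+ library 1 held the highest QSC level of Cd36, Fabp4 and Fabp5. It also held the highest sum of endothelial markers among QSCs, 256 CPM against 155 to 180 CPM, and of erythroid markers, 375 CPM against 33.8 to 172 CPM, and the part of those cells in the levels was not tested. Gli3+/+ library 3 held the highest Acsl1, Acsl3 and Acsl4 and the lowest Cpt1a, Acadm, Acadl and Acads of the 6 QSC libraries. The median coefficient of variation over the members was 22.0% in Gli3+/+ and 11.6% in Gli3Δ/Δ QSCs.

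Of the 56 other pathway genes none was called between the QSC genotypes by edgeR, DESeq2 or limma-voom, and 1 had an unadjusted p under 0.05. The 5 with the lowest p were Acsl6 (log2 fold change 0.48, adjusted p = 0.622), Ech1 (0.37, 0.733), Dbi (0.30, 0.742), Acsf2 (0.42, 0.748) and Acsbg1 (-1.02, 0.779).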

How the data were processed

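RNA-seq was made from poly(A) RNA with a directional kit. The authors deposited estimated counts (expected counts) per gene from salmon and tximport on GRCm38 with GENCODE vM19, not normalized. Only this table was used. The 4 deposited comparison tables hold the authors' DESeq2 fold changes, standard errors and p-values, which were not used. Counts were rounded and every one of the 25093 genes was tested in edgeR 4.0.16 (quasi-likelihood, TMM, R 4.3.3). Called genes had an adjusted p (Benjamini-Hochberg over all genes) under 0.05 and changed 1.2-fold or more. The genotype comparison used the 6 QSC libraries and the state comparison all 12. DESeq2 1.42.0 and limma 3.58.1 were alternatives. On simulated data with 200 changed genes among 25093, edgeR recovered 81% of 4-fold and 36% of 2-fold changes in the genotype comparison and 80% and 47% in the state comparison. The changed genes were drawn from all genes above a low mean count, so these shares are not those of the members. In the genotype comparison the median SE was 0.185 for the members and 0.326 over all genes. CPM are TMM-scaled. CPM per kb used the union of exons in GENCODE vM21, where 31 of the 34 members have the same identifier version. All 34 members passed edgeR's filter on low counts, and Fabp3 failed the filter of 10 counts in every library. Single ratios and shares were compared by two-sided exact permutation tests (scipy 1.17.1). Value by value, the text gives members called in a comparison, members whose groups do not overlap, the 5 lowest p, and the highest and lowest of each role, and of other pathway genes those called (some by name and range only) or else the 5 lowest p. Promoters came from RefSeq, GRCm38.p6. The members and lists were chosen with earlier results of these data known. Same-numbered QSC libraries did not deviate together (r from -0.10 to 0), so that numbers were not taken as pairs. No pair of libraries matched within sampling noise (chi-square per degree of freedom at least 36.1). Totals were 36886130 to 65750131, and their effect on precision was not tested.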

Additional observations from a re-analysis of the deposited data

Results flagged for a closer look

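Among the 6 ASC libraries, 8 of the 34 genes had a highest or lowest library far from the other 5 by Dixon's test. Chance gives such a library in about 1 of 20 groups. The share of all genes with such a library was not counted, so that 8 of 34 is not shown to be particular to these genes. Over all genes, the chi-square per degree of freedom was 227 to 409 between library F and the others. Among libraries A to E it was 36.1 to 82.9. Library F was the high one for Cd36 (381 CPM, the others 32.6 to 94.4), Fabp3 (5.26 CPM, the others 0.377 to 0.995), Fabp4 (216 CPM, the others 16.4 to 62.4), Fabp5 (323 CPM, the others 128 to 167), Acox3 (47.0 CPM, the others 14.9 to 22.1) and Pparg (13.1 CPM, the others 2.55 to 6.11), and the low one for Ppargc1b (15.1 CPM, the others 23.9 to 27.3). Library D was the low one for Acadvl (58.0 CPM, the others 68.2 to 72.5). Library F also held the highest level of all 8 macrophage, all 8 endothelial, all 6 fibro-adipogenic, all 6 mural and all 4 Schwann cell markers among ASCs, and their part in these values was not tested.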

How the results depend on the processing

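The genotype call count of 88 genes was 384 in DESeq2, 48 with at least 10 counts in every library and 58 (without Gli3Δ/Δ library 3) to 103 when 1 library was left out, and 79 with the replicate block. The block called no member, like the fit without it. Members called higher in Gli3Δ/Δ were 1 in DESeq2 (Decr1) and 0 in the other settings run. In the state comparison limma-voom, chosen after seeing the data, called 10 members lower against 6. The median of the members, 0.46, was 0.28 to 0.55 when 1 library was left out and 0.54 against Gli3+/+ QSCs alone. Among the members named, signs turned for 3, none of them called: Eci1 (0.03 without Gli3+/+ library 2 and 0.00 against Gli3Δ/Δ QSCs alone), Ppargc1a (0.11 without Gli3Δ/Δ library 2, 0.02 without ASC library B, 0.00 without F and 0.23 against Gli3+/+ QSCs alone) and Fabp4 (-0.07 without F and -0.06 in limma-voom). Over the fits that left out 1 library, Eci1 ran from -0.10 to 0.03, Ppargc1a from -0.22 to 0.11 and Fabp4 from -0.07 to 1.12. The cause of these differences was not tested. With the longest transcript in place of exon union, Acadm made up 31.8% and Acadl 21.5% of dehydrogenase transcripts in Gli3+/+ QSCs and 20.4% and 46.6% in ASCs. The median of all genes in the state comparison was -0.11 without library F. Fabp3, Ppara and Pparg had the fewest counts of the members in their lowest library, at 9, 32 and 65. The effect of depth was not tested.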
